A study of Eucalyptus globulus and Eucalyptus grandis with 36 samples.

Results

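A set of 47 genes for cellulose and hemicellulose synthesis was followed in stems of the eucalypts Eucalyptus globulus and Eucalyptus grandis, both grown for wood pulp. The genes were chosen by their description in the deposited tables, which had to name a cellulose synthase, COBRA, irregular xylem, trichome birefringence or glucuronoxylan, out of 11827 gene identifiers in all. By name they comprise 6 cellulose synthases (CESA), 29 cellulose synthase-like (CSL) genes, 3 COBRA-like genes and 9 trichome birefringence-like (TBL) genes. The 29 CSL genes divide into 1 CSLA, 3 CSLB, 4 CSLC, 2 CSLD, 9 CSLE and 10 CSLG genes. None of the 47 was described as irregular xylem or glucuronoxylan, and no CESA carried the name of a secondary-wall isoform, so the 6 CESA genes are all named after primary-wall types (CESA1, CESA6 and CESA9).

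The plants were seedlings of clonal seed, aged 6 months and some 25 cm in height, kept for 35 days in growth chambers with a 10 h photoperiod of 280 µmol light per square metre and second. In each species 3 temperatures were crossed with elevated or ambient CO2, and stem RNA of 3 samples was sequenced per group, 36 samples in 12 groups. The temperatures were named 10, 20 and 30 °C by the titles, while the chambers themselves ran at 10 to 12, 22 to 24 or 33 to 35 °C. Air held 700 ppm CO2 where it was elevated, and where it was ambient 390 ppm by the protocols but 400 ppm by the design text. The E. globulus groups are 10 °C, 20 °C and 30 °C, each in elevated and in ambient CO2. The E. grandis groups used are 10 °C and 30 °C in elevated CO2 and 10, 20 and 30 °C in ambient CO2, and its group at 20 °C with elevated CO2 was not analysed here. The control of either species is its group at 20 °C in ambient CO2. Chamber and treatment cannot be told apart, and it is unstated if each sample was a plant of its own.

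Cellulose is spun into the wall as microfibrils by complexes of CESA proteins in the plasma membrane. In Arabidopsis, CESA1, CESA3 and CESA6-type proteins serve the primary wall of growing cells, and CESA4, CESA7 and CESA8 serve the secondary wall of xylem and fibres. CSL proteins are relatives of CESA. CSLA proteins make the mannan backbone and CSLC proteins the glucan backbone of xyloglucan, both in the Golgi, and CSLD proteins act in tip growth and cell division, while the wall roles of CSLB, CSLE and CSLG are less clear. COBRA proteins are anchored outside the plasma membrane and affect how cellulose is laid down, and TBL proteins include enzymes that add acetyl groups to wall polysaccharides.

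The authors deposited 1 value per gene for each group, in log2 units, with no values per sample, so neither SD nor n is given and depth is unknown. A difference is the first-named group minus the second, so that 1 on the log2 scale is 2-fold. A gene is called changed in a comparison where the authors' table lists it (corrected p at or under 0.05) and its groups differ by at least 2-fold. The tables of 3 temperatures give 1 selection over all temperatures and no p-value for a pair. Every member stands in at least 1 table of selected genes, since the set was drawn from those tables, so all 47 were selected as changed somewhere. Of them 15 stood in 1 table, 18 in 2, 11 in 3, 2 in 4 and 1, the CSLC12 gene Eucgr.F00101, in 5 of the 8 tables. Since values are not given per length, levels are compared between groups of 1 gene and never between genes. Fewer cells of a type and less RNA per cell cannot be told apart in these whole stems, and genes of 1 family may share reads, so values of single members are uncertain.

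**Figure D1:**
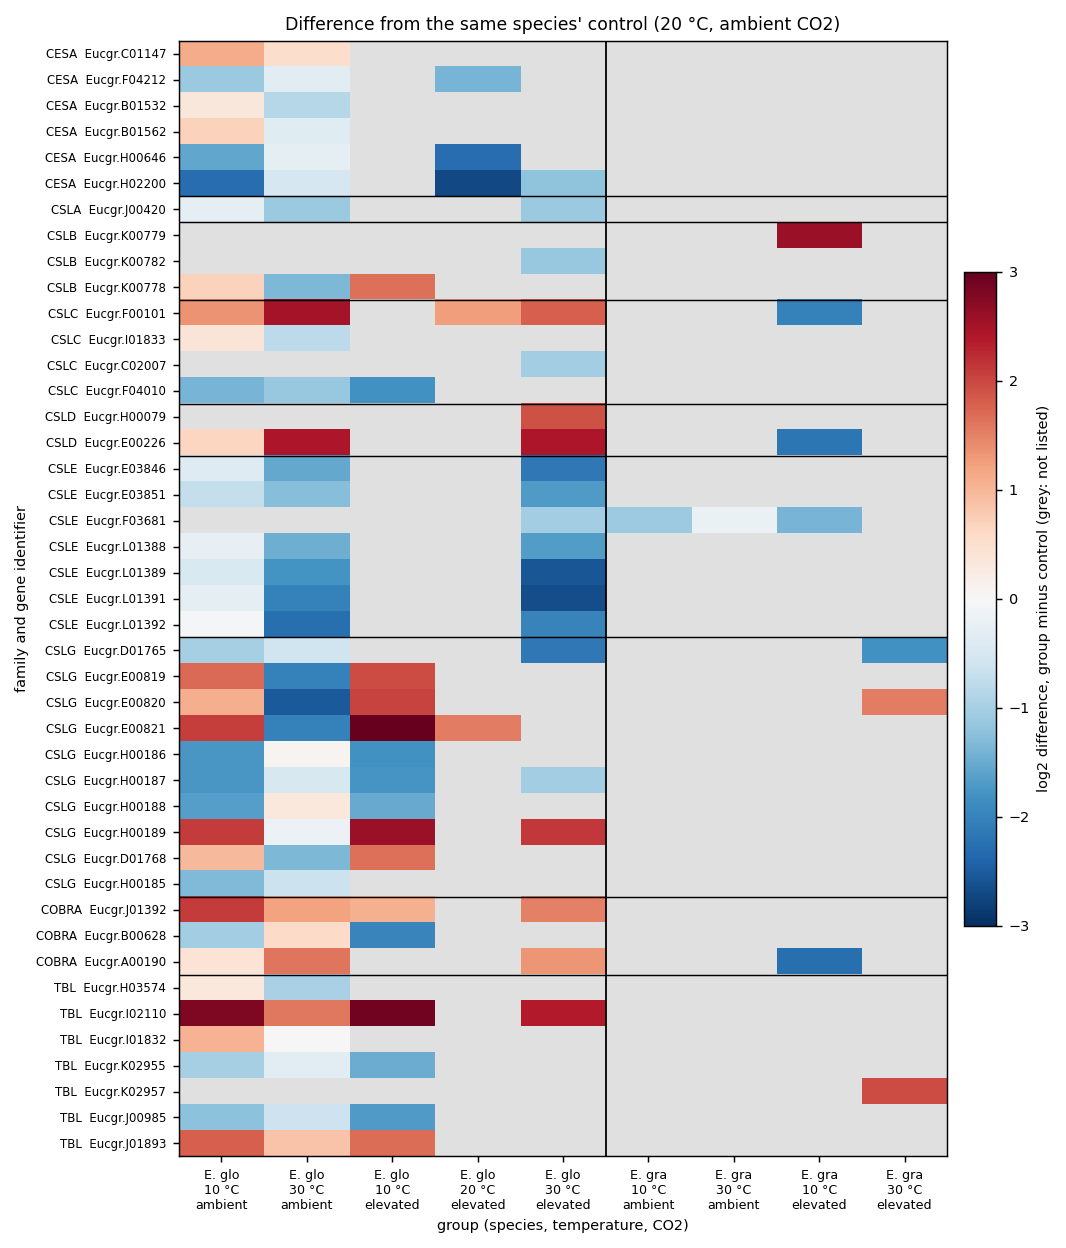
Rows are the 43 members listed in at least 1 table against their own species' control, grouped by family, and columns are groups (E. glo, E. globulus; E. gra, E. grandis). Colour gives the log2 difference of the group minus the control, and grey marks a gene that the authors' table does not list. The listed CSLE genes are lower at 30 °C in E. globulus in ambient and in elevated CO2, CSLG genes divide into opposite blocks, and most E. grandis cells are grey.

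Most of the listing came from E. globulus. Tables within E. globulus held 41 of the 47 members (87.2%), and 85.3% of all 11827 genes. Tables within E. grandis held 8 members (17%), and 21.4% of all genes. The 4 remaining members were listed only between the species. The members' shares are thus near those of all genes. In tables of both species stood 6 members, and the share of all genes in both was not counted.

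The CESA genes of E. globulus fell into contrasting patterns across temperature in ambient CO2. The description cellulose synthase A9 was shared by 4 genes, of which 2 were lower at 10 °C than at 20 °C and the others were not 2-fold apart in that pair. Eucgr.H02200 had group values of 6.93 at 10 °C, 9.22 at 20 °C and 8.71 at 30 °C. For Eucgr.H00646 the values were 7.81 at 10 °C, 9.37 at 20 °C and 9.10 at 30 °C. Both were lowest in the cold, by 2.28 and 1.55 on the log2 scale against the 20 °C control. Eucgr.F04212, described as cellulose synthase 6, had 7.37 at 10 °C, 8.49 at 20 °C and 8.15 at 30 °C, and was also lowest in the cold. The other CESA9 genes ran the other way, with Eucgr.B01562 at 8.43, 7.73 and 7.38 and Eucgr.B01532 at 7.54, 7.19 and 6.34 at 10, 20 and 30 °C. Both were lower at 30 °C than at 10 °C, by 1.05 (Eucgr.B01562) and 1.21 (Eucgr.B01532) on the log2 scale. Eucgr.C01147, described as cellulose synthase 1, whose Arabidopsis namesake is a required subunit of the primary-wall complex, had 7.34 at 10 °C, 6.23 at 20 °C and 6.75 at 30 °C. It was 1.11 higher at 10 °C than at 20 °C.

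In elevated CO2 at 20 °C, 3 CESA genes of E. globulus were lower than in ambient CO2 and none was higher, where 1.72% of all genes were lower and 3.31% higher. Eucgr.H02200 had 6.51 in elevated CO2 and 9.22 in ambient CO2, a difference of -2.70, or 6.51-fold. Eucgr.H00646 had 7.07 in elevated CO2 and 9.37 in ambient CO2, a difference of -2.29. Eucgr.F04212 had 7.10 in elevated CO2 and 8.49 in ambient CO2, a difference of -1.39. These 3 genes were also lower in the cold, but the cold and the CO2 comparison share the control group at 20 °C. Against 10 °C, which does not involve that group, Eucgr.H02200 was 1.78 higher at 30 °C and Eucgr.H00646 1.28 higher, while Eucgr.F04212 was 0.78 higher and not 2-fold apart. Eucgr.H02200 was the 1 CESA gene listed for 30 °C with elevated CO2, with 8.01 there and 9.22 in the control (difference -1.20). No CESA gene was listed for 10 °C with elevated CO2 against the control, nor in any table within E. grandis.

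**Figure D2:**
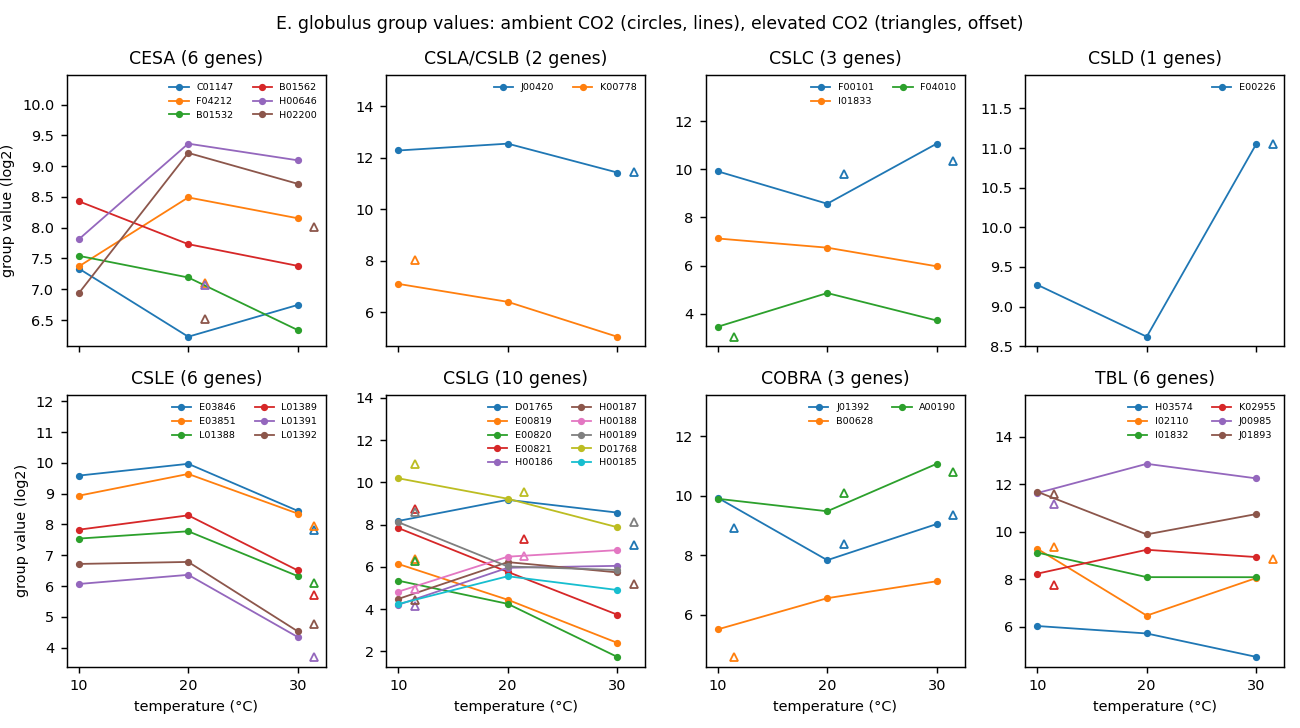
Panels show the group values (log2) of the 37 members listed across temperature in E. globulus, by family, with temperature in °C on the x axis and 1 colour per gene. Circles joined by lines are ambient CO2 and triangles, drawn slightly to the right, are elevated CO2 where a table lists the gene. In the CESA panel 3 genes dip at 10 °C and the triangles at 20 °C lie below them, and all 6 CSLE genes are lowest at 30 °C.

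Genes named for hemicellulose backbones included members higher and members lower at 30 °C. The CSLC12 gene Eucgr.F00101, named after an Arabidopsis xyloglucan glucan synthase, had 9.92 at 10 °C, 8.57 at 20 °C and 11.07 at 30 °C in ambient CO2. In elevated CO2 it had 9.81 at 20 °C and 10.35 at 30 °C. It was thus lowest in the control among the 5 E. globulus groups with a value, by 1.25 to 2.50 on the log2 scale. All these differences share the 1 control value, so they are not independent. The other CSLC genes did not follow it. Eucgr.F04010, a CSLC5 gene, had 3.46 at 10 °C, 4.86 at 20 °C and 3.72 at 30 °C, with the control the highest. Eucgr.I01833, a CSLC4 gene, had 7.12, 6.74 and 5.97 at 10, 20 and 30 °C and was 1.16 lower at 30 °C than at 10 °C. A further CSLC5 gene, Eucgr.C02007, had 8.54 at 30 °C with elevated CO2 and 9.59 in the control.

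The 1 CSLA gene, Eucgr.J00420, named after an Arabidopsis glucomannan synthase, had 12.27 at 10 °C, 12.54 at 20 °C and 11.42 at 30 °C. At 30 °C its value in elevated CO2 was also 11.42, so both warm groups lay 1.12 below the control. The CSLD3 gene Eucgr.E00226, whose Arabidopsis namesake is needed for root hair growth, moved the other way, with 9.27 at 10 °C, 8.62 at 20 °C and 11.05 at 30 °C. It reached 11.06 at 30 °C with elevated CO2, and each of the warm groups was over 5-fold above the control (5.40-fold in ambient and 5.42-fold in elevated CO2). The CSLD1 gene Eucgr.H00079, named after an Arabidopsis gene of pollen tube growth, had 4.69 at 30 °C with elevated CO2 and 2.79 in the control.

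Of the 9 CSLE genes, 6 were listed across temperature in E. globulus, and all 6 were lower at 30 °C than at 20 °C. Of all 11827 genes, listed or not, 1747 (14.8%) were lower, and 7453 were listed. The median difference of the 6 CSLE genes was -1.66, and the median over all 7453 listed genes was 0.35. The 6 genes lie in 2 runs of neighbours, 4 in one (Eucgr.L01388 to Eucgr.L01392) and 2 in the other (Eucgr.E03846 and Eucgr.E03851), so they are not independent and may share reads, and the other 3 CSLE genes have no value at 10 or 30 °C in ambient CO2 in this species. Eucgr.L01392 had 6.72 at 10 °C, 6.78 at 20 °C and 4.53 at 30 °C. Eucgr.L01391 had 6.07, 6.36 and 4.35 at 10, 20 and 30 °C. For all 6 genes the 20 °C value was the highest and the 30 °C value the lowest, and none was 2-fold apart between 10 and 20 °C, where the differences lay between -0.71 and -0.07. Set against 10 °C, 5 of the 6 were lower at 30 °C, and Eucgr.E03851 was 0.58 lower and not 2-fold apart.

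With elevated CO2 at 30 °C, 7 CSLE genes were lower than in the control and none was higher, with a median of -2.01, or 4.02-fold, where 16.2% of all genes were lower and 29.9% higher. Eucgr.L01391 had 3.70 in that group and 6.36 in the control (6.34-fold), and Eucgr.L01389 had 5.72 in that group and 8.30 in the control (5.97-fold). Both warm comparisons share the control. Between the warm groups themselves the 6 genes with both values differed by -0.79 to 0.25 (elevated minus ambient), none of them 2-fold. These 6 have both values because they were selected in both tables. Eucgr.F03681 was the 1 CSLE gene listed within E. grandis. Its E. grandis values were 4.89 at 10 °C, 5.99 at 20 °C and 5.79 at 30 °C in ambient CO2 and 4.59 at 10 °C in elevated CO2. There it was lower in the cold groups and within 0.19 of the control at 30 °C. In E. globulus it had 5.24 at 30 °C with elevated CO2 and 6.28 in the control.

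The widest differences between 30 and 10 °C were those of CSLG genes, and CSLG genes lying side by side took opposite directions. In the coordinates of the deposited tables, for which no genome build is named, 22 of the 47 members lie in 7 runs of the same family, with neighbouring gene ends at most 100 kb apart. One run holds 5 CSLG genes whose ends lie within 56.5 kb, named Eucgr.H00185 to Eucgr.H00189. Its first 4 genes were lower at 10 °C than at 20 °C, by 1.32 to 1.75 on the log2 scale, and the fifth was 2.10 higher. Eucgr.H00186 had 4.20 at 10 °C, 5.96 at 20 °C and 6.05 at 30 °C. Eucgr.H00187 had 4.48, 6.22 and 5.74 at 10, 20 and 30 °C, and Eucgr.H00188 had 4.82, 6.48 and 6.79. Eucgr.H00185, the CSLG3 gene at the edge of the run, had 4.24, 5.55 and 4.90. The last gene, Eucgr.H00189, had 8.11 at 10 °C, 6.02 at 20 °C and 5.85 at 30 °C. None of these 5 genes was 2-fold apart between 30 and 20 °C.

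A second run, of 3 CSLG2 genes within 88.8 kb (Eucgr.E00819 to Eucgr.E00821), had its values in descending order from cold to warm. Eucgr.E00821 had 7.84 at 10 °C, 5.76 at 20 °C and 3.74 at 30 °C. Eucgr.E00819 had 6.14, 4.44 and 2.40 at 10, 20 and 30 °C, and Eucgr.E00820 had 5.34, 4.25 and 1.74. Between 30 and 10 °C these were the members furthest apart, at -4.10 (17.2-fold) for Eucgr.E00821, -3.73 for Eucgr.E00819 and -3.61 for Eucgr.E00820. No error can be given for the low values at 30 °C. A pair of CSLG genes within 32.1 kb also went apart. The CSLG1 gene Eucgr.D01765 had 8.17 at 10 °C, 9.17 at 20 °C and 8.57 at 30 °C, and the CSLG3 gene Eucgr.D01768 had 10.19, 9.22 and 7.88.

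**Figure D3:**
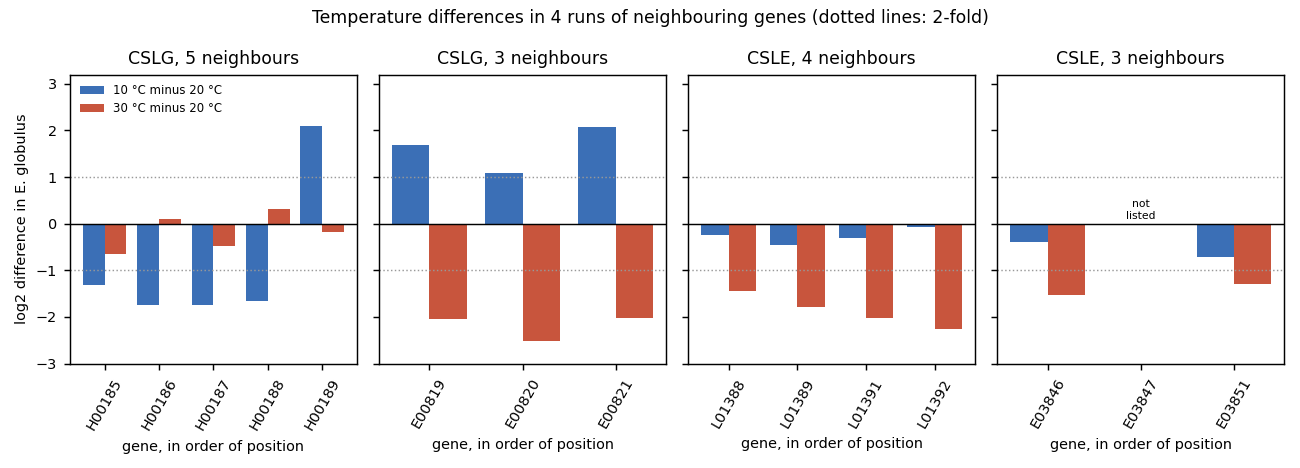
Bars give the log2 difference of 10 °C (blue) and 30 °C (red) minus 20 °C in E. globulus in ambient CO2 for each gene, in order of position within 4 runs of neighbouring genes, and dotted lines mark 2-fold. In the run of 5 CSLG genes the first 4 are lower at 10 °C and the last is higher, the 3 other CSLG neighbours are higher at 10 °C and lower at 30 °C, and the CSLE runs are lower at 30 °C.

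Of 10 CSLG genes, 4 were higher and 5 lower at 10 °C than at 20 °C, where 17.1% of all genes were higher and 14.4% lower. Between 30 and 10 °C 3 were higher and 5 lower at 30 °C, where 23.9% of all genes were higher and 18.4% lower. With elevated CO2 at 10 °C, 5 CSLG genes were higher and 3 lower than in the control, where 15.8% of all genes were higher and 12.7% lower. The highest was Eucgr.E00821, with 8.76 in that group and 5.76 in the control (7.99-fold), followed by Eucgr.H00189, with 8.60 in that group and 6.02 in the control (5.99-fold). Eucgr.H00186, Eucgr.H00187 and Eucgr.H00188 were lower by 1.52 to 1.81. Eucgr.H00189 stood apart at 30 °C, where it had 8.14 in elevated CO2 and 5.85 in ambient CO2, a difference of 2.30 between groups of separate tables. The CSLB4 gene Eucgr.K00778 had 7.09 at 10 °C, 6.40 at 20 °C and 5.04 at 30 °C in ambient CO2, and 8.04 at 10 °C in elevated CO2. Its neighbour Eucgr.K00782, a CSLB3 gene, had 9.01 at 30 °C with elevated CO2 and 10.16 in the control.

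Among the COBRA-like genes, Eucgr.A00190, described as COBRA-like protein 7, had 9.89 at 10 °C, 9.47 at 20 °C and 11.07 at 30 °C in ambient CO2, with 10.79 at 30 °C in elevated CO2. Eucgr.J01392, whose description names only the COBRA-like family, was lowest in the control, with 9.93, 7.83 and 9.04 at 10, 20 and 30 °C. In elevated CO2 it had 8.90 at 10 °C, 8.38 at 20 °C and 9.33 at 30 °C. Eucgr.B00628, described as COBRA-like protein 1, had 5.50, 6.55 and 7.12 at 10, 20 and 30 °C in ambient CO2, and 4.58 at 10 °C with elevated CO2. It was 1.62 higher at 30 °C than at 10 °C.

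TBL genes also divided. Eucgr.I02110, a TBL19 gene, had 9.28 at 10 °C, 6.48 at 20 °C and 8.05 at 30 °C in ambient CO2, and 9.38 at 10 °C and 8.85 at 30 °C in elevated CO2. Its difference of 2.81 on the log2 scale between 10 and 20 °C was the widest of any member in that comparison. Eucgr.J01893, a TBL45 gene, had 11.68, 9.89 and 10.74 at 10, 20 and 30 °C and 11.57 at 10 °C in elevated CO2. The TBL22 gene Eucgr.I01832, whose Arabidopsis namesake acetylates xyloglucan, had 9.12 at 10 °C and 8.09 at both 20 and 30 °C. Lower in the cold were Eucgr.J00985, a TBL36 gene, with 11.62, 12.85 and 12.24, and Eucgr.K02955, a TBL34 gene, with 8.24, 9.24 and 8.93 at 10, 20 and 30 °C. In Arabidopsis TBL34 acetylates xylan. At 10 °C in elevated CO2 Eucgr.J00985 had 11.16 and Eucgr.K02955 had 7.76, less than 2-fold from their values at 10 °C in ambient CO2. Eucgr.H03574, a TBL11 gene, had 6.04, 5.72 and 4.74 and was 1.30 lower at 30 °C than at 10 °C.

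Counted over the set, 22 of 47 members (46.8%) changed at 10 °C in E. globulus, 10 higher and 12 lower than at 20 °C, where 31.5% of all genes changed (17.1% higher, 14.4% lower). At 30 °C 18 members (38.3%) changed, 5 higher and 13 lower, where 37.4% of all genes changed (22.7% higher, 14.8% lower). Higher genes made up 27.8% of the changed members at 30 °C and 60.5% of all changed genes, and 10 of the 13 lower members were CSLE or CSLG genes. Between 30 and 10 °C 26 members (55.3%) changed, 9 higher and 17 lower at 30 °C, beside 42.4% of all genes (23.9% higher, 18.4% lower). The median difference over the 37 listed members was -0.07 at 10 °C, -0.60 at 30 °C and -0.88 between 30 and 10 °C, and over all 7453 listed genes it was 0.08 at 10 °C, 0.35 at 30 °C and 0.41 between 30 and 10 °C. Neighbours of 1 family are not independent: with each run counted once, by its median, 11 changed at 30 °C, 5 higher and 6 lower, and 16 between 30 and 10 °C, 7 higher and 9 lower. With genes of 1 description counted once, 13 changed at 10 °C, 7 higher and 6 lower, 9 at 30 °C, 5 higher and 4 lower, and 11 between 30 and 10 °C, 4 higher and 7 lower.

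Where the members stood across temperature also differed from all listed genes in description. Of 37 members listed across temperature, 6 (16.2%) were highest at 30 °C, and of the 7391 listed genes without tied values, 42.9% were. The lowest value was at 30 °C in 18 members (48.6%) and in 31.4% of all genes. Of these 18 members, 6 were CSLE and 5 CSLG genes, all of them in runs of neighbours that are not independent. These shares were not counted with each run taken once. Of the 6 members highest at 30 °C, Eucgr.F00101 and Eucgr.E00226 are the CSLC12 and CSLD3 genes, Eucgr.A00190 and Eucgr.B00628 are COBRA-like, and Eucgr.H00186 and Eucgr.H00188 are CSLG2 genes.

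At 20 °C 5 members (10.6%) of E. globulus differed between elevated and ambient CO2, the 3 lower CESA genes and 2 higher ones, where 5.03% of all genes differed. The higher ones were Eucgr.F00101, with 9.81 in elevated and 8.57 in ambient CO2, and Eucgr.E00821, with 7.31 in elevated and 5.76 in ambient CO2. At 10 °C in elevated CO2, 16 members (34%) differed from the control, 9 higher and 7 lower, beside 28.5% of all genes (15.8% higher, 12.7% lower). At 30 °C in elevated CO2, 20 members (42.6%) did, 7 higher and 13 lower, beside 46% of all genes (29.9% higher, 16.2% lower). The last 2 shares are near those of all genes.

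Elevated and ambient CO2 within 1 temperature can be set side by side for members that separate tables list. This gives 16 members at 10 °C, 9 at 20 °C and 16 at 30 °C, and no such pair was tested by the authors at 10 or 30 °C. At 10 and 30 °C a gene has both values only where it passed 2 selections. It was listed across temperature in ambient CO2, and listed in elevated CO2 against the same 20 °C control. Small CO2 differences may thus be partly built in, for the members and for all genes alike. At 10 °C 1 of 16 members was 2-fold apart, beside 9.43% of all genes with both values: Eucgr.J01392 had 8.90 in elevated and 9.93 in ambient CO2. At 30 °C 2 of 16 were 2-fold apart, beside 25.3% of all genes. These were Eucgr.H00189 and the CSLG1 gene Eucgr.D01765, which had 7.03 in elevated and 8.57 in ambient CO2. At 20 °C 5 of 9 members were 2-fold apart, beside 42.1% of all genes with both values, and these are the 5 that the authors selected for that difference.

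**Figure D4:**
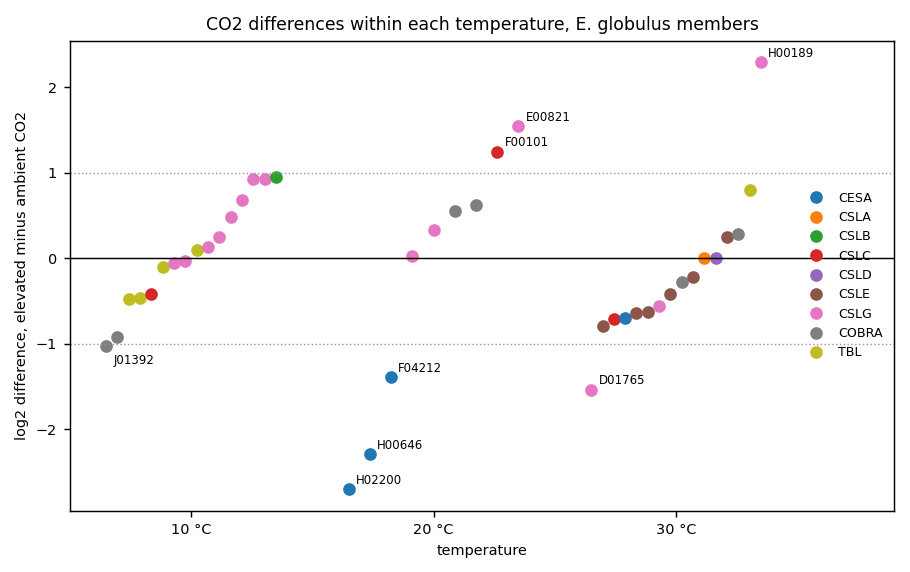
Each point is 1 E. globulus member, placed at its temperature and coloured by family, and the y axis is the log2 difference of elevated minus ambient CO2 at that temperature (within a temperature the points are sorted by value, and dotted lines mark 2-fold). The CESA points at 20 °C lie at -1.39, -2.29 and -2.70. At 10 and 30 °C all points but Eucgr.J01392, Eucgr.D01765 and Eucgr.H00189 lie within 2-fold. No CESA gene has both values at 10 °C, and only 1 has them at 30 °C (Eucgr.H02200, at -0.70). The CO2 difference of CESA genes can thus not be compared between temperatures.

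Within E. grandis few members were listed. In ambient CO2 1 of 47 (2.13%) changed at 10 °C, the CSLE gene Eucgr.F03681, where 3.2% of all genes changed (1.2% higher, 2% lower). None changed at 30 °C against 20 °C, where 1.34% of all genes did, nor against 10 °C, where 3.98% did. With elevated CO2 at 10 °C 5 members (10.6%) differed from the control, 1 higher and 4 lower, beside 13.1% of all genes (3.91% higher, 9.2% lower). Eucgr.A00190 had 9.11 in that group and 11.38 in the control, Eucgr.F00101 had 9.02 in that group and 11.03 in the control, and Eucgr.E00226 had 8.19 in that group and 10.35 in the control. These COBRA-like, CSLC12 and CSLD3 genes were thus lower by 2.02 to 2.27 on the log2 scale. The 1 higher member was the CSLB3 gene Eucgr.K00779, with 9.34 in that group and 6.75 in the control (6.02-fold).

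With elevated CO2 at 30 °C 3 E. grandis members (6.38%) differed from the control, beside 8.32% of all genes (4.89% higher, 3.43% lower). The CSLG2 gene Eucgr.E00820 had 8.68 in that group and 7.15 in the control. The TBL34 gene Eucgr.K02957 had 5.65 in that group and 3.70 in the control. Lower was Eucgr.D01765, with 7.30 in that group and 9.11 in the control. In E. globulus the same gene had 7.03 at 30 °C with elevated CO2 and 9.17 in the control. Eucgr.E00820 was 2.51 lower at 30 °C than at 20 °C in E. globulus in ambient CO2, which is another contrast, and a difference between the species was not tested.

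Between E. globulus in elevated CO2 and the E. grandis control, both at 20 °C, 10 members (21.3%) were listed, beside 19.9% of all genes. Of these, 4 were higher and 6 lower in E. globulus, beside 7.11% higher and 12.8% lower over all genes. Species and CO2 cannot be told apart in this comparison. Reads of both species may not align equally well, which was not tested, so a value near 0 need not mean absent expression. The title of this table names E. grandis with and without elevated CO2, but its columns name E. globulus in elevated CO2 and the E. grandis control. The E. globulus column held the same value as the table within E. globulus for 125 of 125 shared genes, and the E. grandis column the same as tables within E. grandis for 872 of 872 values, so the column headers were followed. The TBL19 gene Eucgr.L01896 had 0.48 in E. globulus and 5.07 in E. grandis, and Eucgr.L01008, also a TBL19 gene, was listed at 0 in E. globulus and had 3.26 in E. grandis. Higher in E. globulus were the CSLE genes Eucgr.E03847 (7.26, against 6.10 in E. grandis) and Eucgr.L03518 (7.51, against 5.93 in E. grandis), the TBL34 gene Eucgr.K02957 (5.64, against 3.70) and the CSLG3 gene Eucgr.D01768 (9.56, against 7.95). Lower were Eucgr.H00188 (6.51, against 8.61 in E. grandis), Eucgr.J01392 (8.38, against 9.72), Eucgr.A00190 (10.09, against 11.38) and Eucgr.F00101 (9.81, against 11.03).

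**Figure D5:**
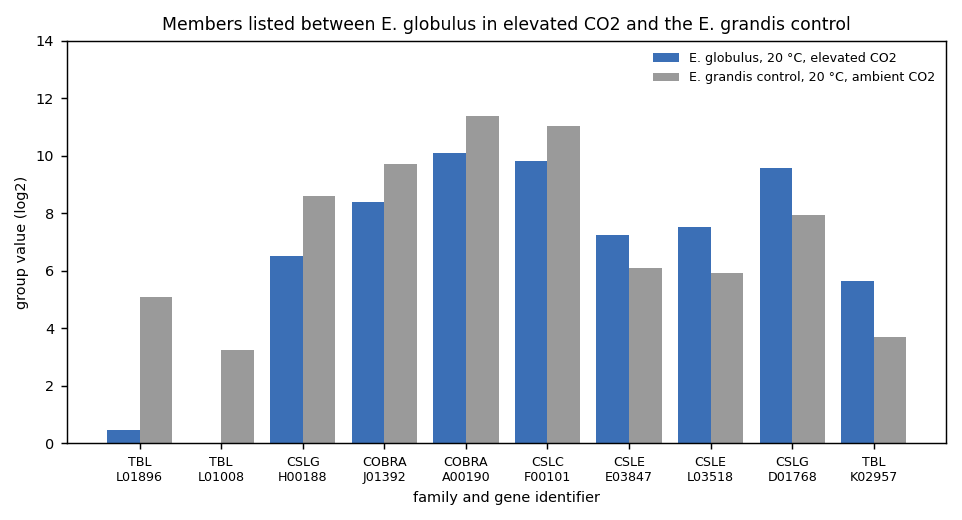
Bars give the group value (log2) of the 10 listed members in E. globulus at 20 °C with elevated CO2 (blue, left of each pair) and in the E. grandis control (grey, right), in order of their difference. Eucgr.L01008 has no blue bar because it is listed at 0, and the 4 pairs at the right are higher in E. globulus.

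In the controls of both species, values exist for 9 members, and 7 were 2-fold apart, 1 higher and 6 lower in E. globulus, beside 60.3% of all genes with both values. Among all such genes 18.2% were higher and 42.1% lower in E. globulus. Eucgr.J01392, Eucgr.H00188 and Eucgr.D01768 have an E. grandis value only through the table against E. globulus in elevated CO2. That table was selected for at least 2-fold against the same E. grandis control, so their differences here were partly selected for. Eucgr.D01768 is the 1 higher member. All genes with both values likewise come from tables of selected genes. Whether reads of both species align equally well was not tested here either. Eucgr.E00820 had 4.25 in E. globulus and 7.15 in E. grandis, and Eucgr.F00101 had 8.57 in E. globulus and 11.03 in E. grandis. Eucgr.D01765 differed by 0.06 and Eucgr.F03681 by 0.29.

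A cellulose synthase term of the Gene Ontology was attached to 30 of the 47 members, that is to every CESA, CSLB, CSLD, CSLE and CSLG gene and to no CSLA, CSLC, COBRA-like or TBL gene. Another 36 genes were taken by words in their descriptions, as possible partners in cellulose and hemicellulose synthesis. Among them are sucrose synthases, which supply UDP-glucose, and glycosyl hydrolase 9B endoglucanases. DUF579, exostosin and glycogenin-like proteins are families with enzymes of xylan synthesis. The list also holds 5 O-fucosyltransferase family genes, a fucosyltransferase 13 and galacturonosyltransferase-like genes. A match by words does not show that a gene acts in these pathways. This list was made with earlier results of these data known. Of its 36 genes, 9 (25%) changed in E. globulus at 10 °C (4 higher, 5 lower) and 15 (41.7%) at 30 °C (7 higher, 8 lower). With elevated CO2, 7 changed at 10 °C, all lower, and 13 at 30 °C (8 higher, 5 lower), which are 19.4% and 36.1% of the list. Over all genes the shares were 31.5% at 10 °C and 37.4% at 30 °C in ambient CO2, and 28.5% at 10 °C and 46% at 30 °C with elevated CO2, so the list was below the background in 3 of these 4 comparisons.

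Of the sucrose synthases named type 4, Eucgr.C03204 had 5.65 at 10 °C, 5.26 at 20 °C and 6.87 at 30 °C. Eucgr.C03205 had 4.84, 4.67 and 6.20, so both were highest at 30 °C. The type 6 genes Eucgr.J01640 (9.20, 8.80 and 7.96) and Eucgr.K02305 (8.75, 8.23 and 7.58) were instead lowest at 30 °C. Also lowest there were the DUF579 genes Eucgr.G01567, with 7.27, 7.03 and 5.72, and Eucgr.K02723, with 6.97, 6.61 and 5.12. A further DUF579 gene, Eucgr.I01644, was lowest at 10 °C, with 6.74, 8.04 and 7.12 at 10, 20 and 30 °C. The glycosyl hydrolase 9B1 gene Eucgr.B02944 had 7.90 at 10 °C in elevated CO2 and 8.45 at 10 °C in ambient CO2, against 10.01 in the control. The glycogenin-like gene Eucgr.H04942, named like an Arabidopsis enzyme that places glucuronic acid on xylan, had 9.47 at 10 °C with elevated CO2 and 10.71 in the control. None of the 36 was listed for elevated CO2 alone at 20 °C, where 5.03% of all genes were listed and 1.72% were lower. At such shares a list of this size may hold none, so nothing is read from it.

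Markers of stem tissues could be read only where a table lists them. The 1 xylem marker found, a vascular related NAC-domain gene, had 6.99 at 10 °C, 5.24 at 20 °C and 6.02 at 30 °C in E. globulus. Of 22 phloem markers 10 were listed across temperature, and 2 (9.09%) changed at 10 °C and 6 (27.3%) at 30 °C (2 higher, 4 lower). Over all genes 31.5% changed at 10 °C and 37.4% at 30 °C. The summed level of the listed phloem markers was 8.90, 8.96 and 8.41 (log2) at 10, 20 and 30 °C. Of 22 cork and epidermis markers 11 were listed, and 2 (9.09%) changed at 10 °C and 7 (31.8%) at 30 °C (5 higher, 2 lower). Both lists were thus below the shares of all genes in both comparisons. Between 30 and 10 °C 8 phloem markers (36.4%) and 11 cork and epidermis markers (50%) changed, where 42.4% of all genes did. At 30 °C 3 of these phloem markers were higher and 5 lower, and 9 of the others higher and 2 lower. In elevated CO2 at 20 °C 4 cork and epidermis markers (18.2%) changed, all higher, and 1 phloem marker (4.55%), lower. There 5.03% of all genes changed. The summed level of the cork and epidermis markers listed across temperature was 11.70, 12.03 and 13.45 at 10, 20 and 30 °C. Most of that sum at 30 °C is 1 gene, the 3-ketoacyl-CoA synthase 11 gene Eucgr.C04159 (10.73, 10.15 and 12.88), and without it the summed level was 10.67, 11.57 and 11.85 (left out after the values had been seen). None of the markers listed across temperature was at 0 there except 1 cork and epidermis gene at 20 °C. Their part in the members' differences was not tested.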

How the data were processed

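Stem RNA libraries were made with standard Illumina protocols, per the labels' protocols. The submitters' processing notes name Bowtie2 and DESeq but no version or role, and the build and the counting are unstated in the sources used here. Deposited group values are log2, normalised, 1 per gene and group, per the file headers, and reach down to 0. Each log2 fold change and absolute fold (a ratio) that the authors deposited was checked against the group values (76598 of 76598 equal), as were group values in several tables (8144 of 8144, tolerance 0.0001). The 8 tables hold genes selected by the authors at a corrected p-value of 0.05 and 2-fold, per the file headers.

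With no values per sample, no test was run and depth cannot be given. Differences of group values, counts and medians were computed with Python 3.11.15 and pandas 2.3.3 and set beside all 11827 genes. Only the counting was checked on simulated differences, with planted changes well past the threshold. Differences between groups of separate tables had no selection of their own, but their genes had been selected in each of those tables. Members and lists were chosen with earlier results of these data known. Named genes were all CESA and COBRA-like members and, of the CSL and TBL members, the highest and lowest per comparison and those in the most tables; others were named to show whole families. No sequences were used here.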

Additional observations from a re-analysis of the deposited data

How the results depend on the processing

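With a minimum of 4-fold in place of 2-fold, fewer members counted as changed: in E. globulus 5 at 10 °C (4 higher, 1 lower), 7 at 30 °C (2 higher, 5 lower), 7 between 30 and 10 °C (all lower), 2 in elevated CO2 at 20 °C (both lower), 4 at 10 °C with elevated CO2 (all higher) and 8 at 30 °C with elevated CO2 (3 higher, 5 lower). In E. grandis 0 changed at 10 °C in ambient CO2, 4 at 10 °C with elevated CO2 (1 higher, 3 lower) and 0 at 30 °C with elevated CO2, and between E. globulus in elevated CO2 and the E. grandis control 3 did. The median difference of changed CSLG genes at 10 °C was negative at 2-fold and 2.09 at 4-fold, where only 2 genes entered, both higher. With CESA and CSL genes alone, 10 changed at 10 °C with elevated CO2 and 5 between the species groups, since fewer genes enter. With neighbours counted once, an alternative added after the data had been seen, 11 changed at 30 °C and 16 between 30 and 10 °C in E. globulus. With genes of the same description counted once, by their median, E. globulus counts were 13 at 10 °C, 9 at 30 °C (5 higher, 4 lower, against 5 and 13 as reported), 11 between 30 and 10 °C, 10 at 10 °C with elevated CO2 and 12 at 30 °C with elevated CO2. Leaving out members at 0 could move only the count between the species groups (9 instead of 10), since only 1 member was at 0. Taking any gene with both values in any table left all 12 counts the same. Only the comparisons with E. globulus at 20 °C in elevated CO2 could gain genes this way. In the others 1 group has values in a single table, so their counts could not move. No paired analysis was possible because the columns hold 1 value per group and no replicate numbers. For the same reason leaving out each replicate was not run. Depth and error per value are unknown.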
